A study of Mus musculus with 6 samples.

Results

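The choroid plexus is the fold of epithelium and vessels that hangs in the brain's ventricles and makes cerebrospinal fluid. The genes described here are Ttr and 8 further genes of its epithelium (Enpp2, Folr1, Kl, Prlr, Aqp1, Slc4a5, Clic6 and Otx2), 9 of the 38087 genes in the table, matched by symbol. They were selected on their levels in these same libraries, so their levels, ranks and differences are a description and carry no p-value.

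The libraries came from the brains of 3 wild-type (WT) and 3 Sgo1-/+ mice of the C57BL6 strain, untreated and 24 months old, with 1 library per mouse. Sgo1-/+ mice are haploinsufficient for Sgo1 (Shugoshin 1), which protects the cohesion of sister chromatids. Males gave WT replicate 1 and Sgo1-/+ replicate 2, and females gave the rest. WT libraries were read in run 258 and Sgo1-/+ libraries in run 259, so genotype and run cannot be told apart.

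Choroid plexus epithelium secretes carrier proteins and growth factors, moves folate and other nutrients into the cerebrospinal fluid, and drives fluid secretion by transporting sodium, bicarbonate, chloride and water. Transthyretin, the product of Ttr, carries thyroxine and the retinol-binding protein, and in the brain it is made mainly by this epithelium. The tissue is small and lies inside the ventricles, and how much of it each sample held was not recorded in the sources used here. In RNA from whole tissue, fewer cells of a type and less RNA per cell cannot be told apart.

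The libraries held 11123917 to 12505561 estimated counts each. Sgo1 itself was listed at 0 to 7 counts per library (0, 7 and 0 in WT against 4, 2 and 0 in Sgo1-/+), which is too few to check the genotype labels. According to the methods the cerebrum was taken with cortex and hippocampus and without the olfactory bulb, cerebellum and medulla. WT replicate 1 stood apart in this respect. The summed level of 11 brain stem and cerebellum markers was 20823 normalized counts in that library and between 1608 and 2268 in the other 5. In those 5 most of the sum was Calb1 (1485 to 2145), so the sum does not show how evenly they held the other markers. Cbln3 of the same list was at 28.6 and 54.3 in WT replicates 2 and 3 and at 171, 12.2 and 201 in Sgo1-/+. The summed level of 10 markers of cortex and hippocampus neurons was 6273 in WT replicate 1 against 36133 to 43799 in the others. The genotype differences, ranges and correlations with Ttr are therefore given also without WT replicate 1.

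Levels are normalized counts, that is, estimated counts divided by the library's TMM-scaled size and multiplied by the mean of that size, and values of a group stand in the order of its replicates 1 to 3. In a library of this depth 3 counts correspond to between 2.86 and 3.07 normalized counts, and a gene at 0 may hold up to 3 counts, a limit that covers counting error only. All 9 genes passed the default filter on low counts, as did 16337 genes in all.

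Of the secreted products, Ttr was the most variable by measured ratio. Its level was 20009, 6758 and 350 normalized counts in the WT libraries and 815, 114 and 21824 in the Sgo1-/+ libraries. The highest and the lowest value both lay in the Sgo1-/+ group, and the WT values lay between them. The ratio of Sgo1-/+ replicate 3 to Sgo1-/+ replicate 2 was 192 (95% counting interval 160 to 234), and with libraries under 3 counts raised to 3 counts it ranked 7 by range among the 16337 tested genes, where the ranges of genes so raised are lower bounds. Ttr made up 0.179% of all counts in WT replicate 1 and 0.176% in Sgo1-/+ replicate 3, but 0.000921% in Sgo1-/+ replicate 2. The males, WT replicate 1 and Sgo1-/+ replicate 2, held the second highest and the lowest of the 6 levels.

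Enpp2 encodes autotaxin, a secreted enzyme that makes lysophosphatidic acid. Its level was 10278, 5245 and 3649 normalized counts in the WT libraries and 4131, 3166 and 13140 in the Sgo1-/+ libraries. The 6 libraries fell in the same order as for Ttr, over a far narrower range of 4.15-fold (95% counting interval 3.99 to 4.32). Enpp2 is also made by oligodendrocytes, and 7 oligodendrocyte markers summed to 99656, 42589 and 40590 normalized counts in the WT libraries and to 57625, 55296 and 96708 in the Sgo1-/+ libraries. The 2 libraries with the most Enpp2 were thus also the 2 with the highest oligodendrocyte markers, and the part of these cells in the Enpp2 level was not tested.

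Of the receptors, Folr1 encodes the folate receptor that carries folate across this epithelium. Its level was 91.6, 60 and 1.52 normalized counts in the WT libraries and 17.1, 0 and 128 in the Sgo1-/+ libraries, again in the order of Ttr. With 0 counts in Sgo1-/+ replicate 2, the highest library was at least 42.2-fold above the lowest, taking 3 counts in that library as the floor. WT replicate 3, with 1.5 estimated counts, lay under the same floor, so these 2 libraries have no order between them.

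Kl encodes Klotho, the co-receptor of the hormone Fgf23, which is also shed into the cerebrospinal fluid. Its level was 433, 178 and 55.3 normalized counts in the WT libraries and 82.5, 33.4 and 904 in the Sgo1-/+ libraries. Sgo1-/+ replicate 3 was 27.0-fold above Sgo1-/+ replicate 2 (95% counting interval 19.1 to 39.5) and 2.09-fold above WT replicate 1, which had nearly as much Ttr.

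Prlr encodes the prolactin receptor, a cytokine receptor that signals through Jak2 and Stat5. Its level was 169, 169 and 52.8 normalized counts in the WT libraries and 111, 109 and 920 in the Sgo1-/+ libraries. One library carried most of the range: Sgo1-/+ replicate 3 was 5.45-fold above the next 2, and the other 5 libraries spanned 52.8 to 169. No other of the 9 genes separated Sgo1-/+ replicate 3 from WT replicate 1 by as much, where the ratio was between 0.668 (Otx2) and 2.09 (Kl).

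Of the genes of fluid and ion transport, Aqp1 encodes the water channel of the ventricular face of the epithelium. Its level was 77.5, 179 and 61.9 normalized counts in the WT libraries and 63.4, 2.03 and 132 in the Sgo1-/+ libraries. It differed from the other members in being highest in WT replicate 2. Sgo1-/+ replicate 2, with 2 counts, stood far below the other 5, and the ratio of WT replicate 2 to it was 88.3, with a wide 95% counting interval of 24.1 to 735.

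Slc4a5 encodes a sodium bicarbonate cotransporter of the same face. Its level was 156, 90.8 and 4.06 normalized counts in the WT libraries and 5.96, 0 and 156 in the Sgo1-/+ libraries. The 6 libraries split into 3 with at least 90.8 and 3 with at most 5.96. The highest library was at least 51.4-fold above Sgo1-/+ replicate 2, on a floor of 3 counts in that library.

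Clic6 encodes a chloride intracellular channel protein. Its level was 341, 297 and 128 normalized counts in the WT libraries and 196, 133 and 475 in the Sgo1-/+ libraries. The range of 3.72-fold (95% counting interval 3.05 to 4.57) was the narrowest of the 9 genes.

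Otx2 encodes a homeodomain transcription factor needed to form and keep the choroid plexus. Its level was 135, 35.2 and 7.10 normalized counts in the WT libraries and 8.94, 10.9 and 90.1 in the Sgo1-/+ libraries. Unlike most of the set it was highest in WT replicate 1, where it was 19.0-fold (95% counting interval 8.96 to 48.1) above WT replicate 3. Without WT replicate 1 its range was 12.7-fold, and the ranges of the other 8 genes were not set by that library. Its 3 low libraries rested on 7 to 10.7 estimated counts each, so their order is not resolved.

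**Figure D1:**
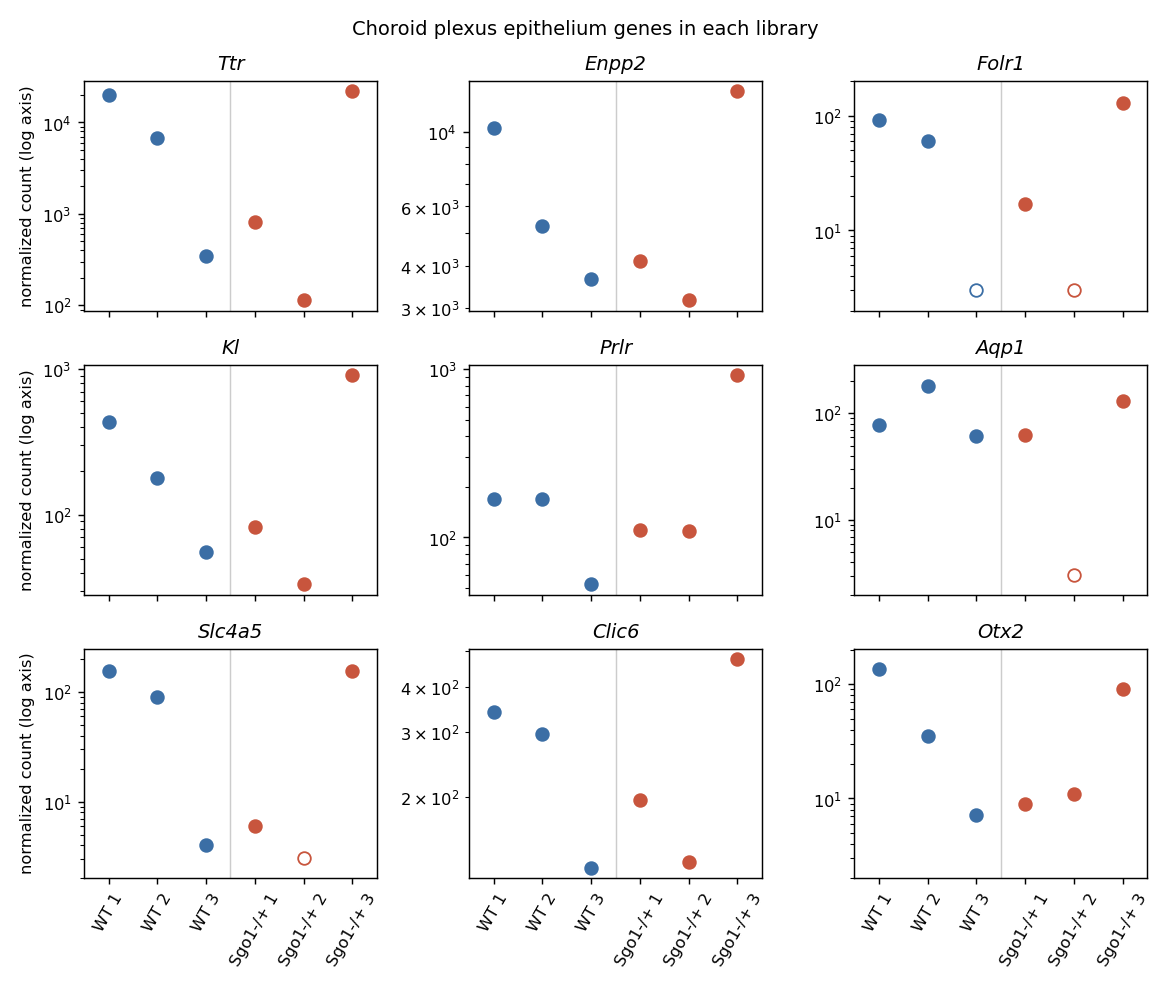
Normalized counts of each of the 9 genes (vertical log axis, scaled per gene) in the 3 WT libraries (blue) and the 3 Sgo1-/+ libraries (red), 1 point per library; open circles are libraries under 3 counts, drawn at 3 counts. WT replicates 1 and 2 and Sgo1-/+ replicate 3 are the 3 highest libraries in all 9 panels, from Ttr, with 114 to 21824, to Clic6, with 128 to 475.

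WT replicates 1 and 2 and Sgo1-/+ replicate 3 were the 3 highest libraries for 9 of 9 genes, as they were for 1007 of the 16337 tested genes (6.16%). Sgo1-/+ replicate 3 was the highest for 7 of the 9. Sgo1-/+ replicate 2 was the lowest for 6 and WT replicate 3 for the other 3 (Prlr, Clic6 and Otx2). Which library was lowest is not resolved for Folr1 and Otx2, nor for Clic6, with 126 estimated counts in WT replicate 3 and 131 in Sgo1-/+ replicate 2. The highest library was at least 10 times the lowest for 7 of the 9 genes, all but Enpp2 and Clic6, as for 354 of the tested genes (2.17%), and the median range over all tested genes was 1.62-fold. Both counts describe the choice of the genes, which were picked for such a pattern. Within the authors' own normalized values 7 of the 9 genes had the same library order, and the other 2 (Prlr and Slc4a5) differed where 2 libraries lay almost level.

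The windows upstream of the start sites of the genes that vary together are shown next. Each is 250 bases before a start site in RefSeq (build GRCm38), 5′ to 3′ on the strand of the gene. RefSeq windows were at hand for 5 of the 9 genes (Kl, Aqp1, Slc4a5, Otx2 and Prlr, 10 windows), and 4 are printed, namely those of Kl, Slc4a5 and Otx2 that hold a match. Capitals mark matches, on either strand, to the GC box GGGCGG, the TATA box TATAAA and TAATCC, the core that Otx2 binds.
Kl, chr5:150952357-150952606, plus strand: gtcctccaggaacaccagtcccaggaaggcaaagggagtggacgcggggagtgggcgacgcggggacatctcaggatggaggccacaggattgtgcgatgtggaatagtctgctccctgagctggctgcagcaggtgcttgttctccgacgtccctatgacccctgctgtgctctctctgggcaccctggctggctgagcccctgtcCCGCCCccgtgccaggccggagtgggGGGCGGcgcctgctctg
Slc4a5, chr6:83237125-83237374, plus strand: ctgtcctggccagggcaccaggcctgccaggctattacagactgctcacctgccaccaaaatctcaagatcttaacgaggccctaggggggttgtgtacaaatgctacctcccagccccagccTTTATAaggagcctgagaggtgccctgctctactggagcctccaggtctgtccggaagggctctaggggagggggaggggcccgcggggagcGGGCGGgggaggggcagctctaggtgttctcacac
Otx2, chr14:48667645-48667894, minus strand: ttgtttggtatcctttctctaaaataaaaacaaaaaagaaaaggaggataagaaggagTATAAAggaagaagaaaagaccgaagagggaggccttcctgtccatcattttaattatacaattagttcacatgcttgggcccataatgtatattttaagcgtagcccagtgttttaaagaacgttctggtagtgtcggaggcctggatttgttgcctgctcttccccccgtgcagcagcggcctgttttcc
Otx2, second start, chr14:48665110-48665359, minus strand: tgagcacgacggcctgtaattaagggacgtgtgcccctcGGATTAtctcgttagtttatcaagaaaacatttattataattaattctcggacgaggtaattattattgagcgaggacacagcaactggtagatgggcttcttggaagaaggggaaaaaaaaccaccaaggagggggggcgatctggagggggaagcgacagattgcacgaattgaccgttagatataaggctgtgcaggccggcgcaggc

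Counted from the start site, the Kl window held GC boxes at -43 and -17 and 66.8% G and C. The Slc4a5 window held a TATA box at -127 and a GC box at -35, and its start site lies inside the gene, 17547 bases from the start of the gene in the table. The window before the first Otx2 start held a TATA box at -192. The second Otx2 window printed is that of a start 2535 bases further into the gene. Another start lies before it, at 136 bases, and the window of that start held no match. The second window printed held the Otx2 core at -211, the only match to that core in the 10 windows. The Aqp1 window, which is not printed, held a GC box at -190. Over the 10 windows 1 held the Otx2 core, 2 a TATA box and 3 a GC box, where 6.25%, 12.4% and 32.7% of 32851 mouse windows of the same length held them. No 2 matches overlapped. These are matches of letters only.

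The levels of different genes can be compared per length of exon, as FPKM (fragments scaled to exon length and library size). Ttr reached 1510 and 478 FPKM in the first 2 WT libraries and 1490 FPKM in Sgo1-/+ replicate 3, above Enpp2 at 159, 76.2 and 184 FPKM in the same libraries. In WT replicate 3 and in Sgo1-/+ replicates 1 and 2 the order was the other way around, with Ttr at 23.6, 55.7 and 7.77 FPKM and Enpp2 at 50.6, 57.9 and 44.5 FPKM, although in Sgo1-/+ replicate 1 the 2 genes lay close. The other 7 genes lay below both in every library, at most at 9.82 FPKM. In Sgo1-/+ replicate 2 the distance to Ttr was small, since Clic6 was at 2.75 FPKM there. Clic6 led the 7 in every library, from 2.62 FPKM in WT replicate 3 to 9.82 in Sgo1-/+ replicate 3, with Aqp1 closest behind it in WT replicate 2, at 5.72 against 6.37 FPKM. Otx2 was at 2.85 FPKM in WT replicate 1 and at 0.135 in WT replicate 3.

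Set against Ttr in the same library, the other genes did not keep a fixed ratio. Slc4a5 came closest, with 7.81, 13.4 and 11.6 counts per 1000 Ttr counts in WT, 7.32 and 7.17 in Sgo1-/+ replicates 1 and 3, and 0 in Sgo1-/+ replicate 2. Folr1 gave 4.58, 8.88 and 4.35 in the WT libraries and 21, 0 and 5.88 in the Sgo1-/+ libraries. Enpp2 moved the other way: it gave 514 and 776 in WT replicates 1 and 2 and 602 in Sgo1-/+ replicate 3, but 10400, 5070 and 27900 in the 3 libraries low in Ttr. In the same sense Kl went from 21.6 per 1000 in WT replicate 1 to 295 in Sgo1-/+ replicate 2, Prlr from 8.44 to 963 and Clic6 from 17.0 to 1170 between the same 2 libraries. Ratios per Ttr count in Sgo1-/+ replicate 2 rest on only 112 Ttr counts. Across the libraries, then, Enpp2, Kl, Prlr and Clic6 spanned a smaller range than Ttr, and in the 3 libraries low in Ttr Slc4a5 was at 5.96 and Folr1 at 17.1 normalized counts or less.

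The comparison the study was built for is Sgo1-/+ against WT. The quasi-likelihood test of edgeR called 0 of 16337 genes at an adjusted p under 0.05 (0%), with a smallest adjusted p of 0.9999. At an unadjusted p under 0.05 it found 333 genes (2.04%), with 132 higher and 201 lower in Sgo1-/+. DESeq2's Wald test called 3 genes, none of them among the choroid plexus genes named here, and limma called 0. The p-values set the difference between the groups against the spread between mice within a group. With 3 mice per group that spread was large for the genes described here.

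The log2 difference of Sgo1-/+ minus WT was -0.25 for Ttr (SE 1.80), from 9039 ± 10026 normalized counts in WT and 7584 ± 12337 in Sgo1-/+ (SD, n = 3 each). It was 0.09 for Enpp2 (SE 0.609), -0.09 for Folr1 (SE 1.45), 0.61 for Kl (SE 1.21) and 1.54 for Prlr (SE 0.917). For the transport genes and Otx2 it was -0.69 for Aqp1 (SE 0.982), -0.63 for Slc4a5 (SE 1.57), 0.07 for Clic6 (SE 0.538) and -0.69 for Otx2 (SE 1.16). Of the 9 genes, 4 were higher and 5 lower in Sgo1-/+, with a median of -0.09 against 0.00 over all tested genes. Prlr had the largest difference of the 9, and its WT and Sgo1-/+ values overlapped as well. The normalized counts of the groups overlapped for all 9 genes, whereas they did not overlap for 1115 of the tested genes (6.82%).

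The sign of these differences changed with single libraries and with the method. Without Sgo1-/+ replicate 3 all 9 genes were lower in Sgo1-/+, with a median of -1.93, and the difference was -4.28 for Ttr, -4.74 for Slc4a5, -2.58 for Folr1, -2.54 for Otx2, -1.93 for Kl, -1.69 for Aqp1, -0.81 for Enpp2, -0.64 for Clic6 and -0.24 for Prlr. Without WT replicate 1, the library with the brain stem and cerebellum markers, 8 were higher and 1 lower, with a median of 0.62, and the difference was 1.77 for Prlr, 1.54 for Kl, 1.09 for Ttr, 0.78 for Otx2, 0.62 for Enpp2 and for Folr1, 0.33 for Clic6, 0.19 for Slc4a5 and -0.87 for Aqp1. Without WT replicate 3 the split was 2 higher and 7 lower, with a median of -0.65, and without Sgo1-/+ replicate 1 or 2 it was 6 higher and 3 lower, with medians of 0.28 and 0.39. Without WT replicate 2 it was 4 and 5, as over all libraries, with a median of -0.03. Aqp1 was the only gene lower in Sgo1-/+ in every one of these fits, by as little as -0.08 without WT replicate 2. With all 6 libraries, limma on log2 values gave 1 gene higher (Prlr) and 8 lower, with -1.52 for Ttr and -0.25 for Kl, and TMM replaced by the total library size gave 3 higher and 6 lower.

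**Figure D2:**
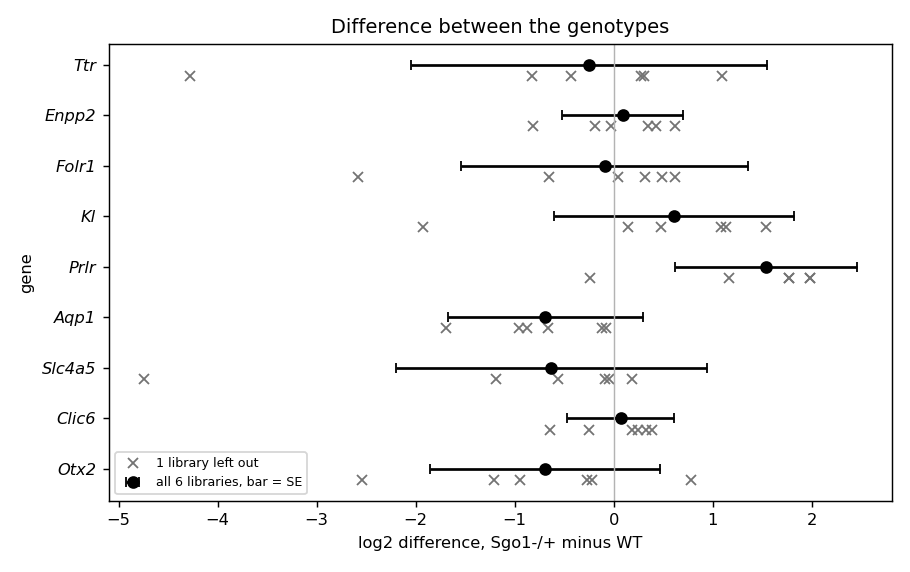
Log2 difference of Sgo1-/+ minus WT for each of the 9 genes, as fitted by edgeR over all 6 libraries (black points, bars of 1 SE) and with 1 library left out (grey crosses). The leftmost cross of each gene is the fit without Sgo1-/+ replicate 3, from -4.74 for Slc4a5 to -0.24 for Prlr.

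Whether other genes of the epithelium behaved in the same way was read from a list of 36 further choroid plexus genes, of which 33 passed the filter and 3 (Slco1a5, Cldn3 and Lmx1a, each at 0 in at least 1 library) did not. None of the 33 differed between the genotypes at an unadjusted p under 0.05 in edgeR (0 of 33 against 2.04% of all genes), with a smallest unadjusted p of 0.124, and in none did the groups fail to overlap. Of the 33, 10 were higher and 23 lower in Sgo1-/+, with a median log2 difference of -0.09. By role, 0 of 15 tested channels, transporters and pumps, 0 of 17 secreted, surface, junction and matrix genes and 0 of 1 transcription factor passed.

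Without WT replicate 1 none of the 33 passed in edgeR either and their median was 0.18. Without Sgo1-/+ replicate 3 the median of the 33 was -0.87 and 5 were lower at an unadjusted p under 0.05: the potassium channel genes Kcnj13 (-2.86) and Kcne2 (-4.79), Tmem72 (-3.27), the growth factor binding protein gene Igfbp2 (-1.33) and the homeobox gene Msx1 (-1.30), each with an adjusted p of 1.0 in edgeR. Over all genes 251 of 16654 were at an unadjusted p under 0.05 in that fit, higher or lower. Without WT replicate 3 the carbonic anhydrase gene Car12 was higher (0.78, unadjusted p = 0.0169 in edgeR), beside 1040 of 16741 genes under 0.05. Without Sgo1-/+ replicate 1 the growth factor gene Bmp7 was lower (-0.55, unadjusted p = 0.0419 in edgeR), beside 360 of 16676 genes.

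The 8 most abundant of these genes varied less than Ttr, and the part of other cell types in their levels was not tested. Igf2, a growth factor released into the cerebrospinal fluid, was at 1217, 1367 and 766 normalized counts in the WT libraries and at 939, 264 and 1501 in the Sgo1-/+ libraries. Igfbp2, which binds it, was at 617, 558 and 438 and at 258, 169 and 586. Both were lowest in Sgo1-/+ replicate 2, where the markers of meningeal and stromal fibroblasts described below also had their lowest sum (680). Slc4a2, a chloride and bicarbonate exchanger, ran from 318 to 747 and Ace, the angiotensin-converting enzyme, from 183 to 529, with the highest value in WT replicate 1 and in Sgo1-/+ replicate 3, respectively.

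Of the other abundant ones, the zinc transporter gene Slc39a12 ran from 565 to 964 and the sulfatase gene Sulf1 from 289 to 383 normalized counts. Htr2c, the serotonin receptor with a known high level in this epithelium and in neurons, was at 1241, 1073 and 880 in WT and at 893, 1117 and 537 in Sgo1-/+, lowest where Ttr was highest. Car12 was at 181, 281 and 391 in WT and at 341, 435 and 415 in Sgo1-/+, highest where Ttr was lowest.

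Kcne2, Cldn2 and Kcnj13, chosen after their values were seen, had the widest ranges of the 33. Kcne2, a potassium channel subunit, was at 111, 19.5 and 4.06 normalized counts in WT and at 1.99, 1.01 and 146 in Sgo1-/+. Cldn2, the claudin of this epithelium's leaky tight junctions, was at 90.5, 21 and 2.03 in WT and at 5.96, 2.03 and 115 in Sgo1-/+. Kcnj13, an inwardly rectifying potassium channel, was at 104, 30.1 and 9.95 in WT and at 9.60, 3.06 and 125 in Sgo1-/+. In all 3 the libraries high in Ttr were the high ones.

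WT replicates 1 and 2 and Sgo1-/+ replicate 3 were the 3 highest libraries for 23 of the 33, beside 6.16% of all tested genes. Sgo1-/+ replicate 3 was the highest for 20 and WT replicate 1 for 10, and Sgo1-/+ replicate 2 was the lowest for 17. The highest library was at least 10 times the lowest for 11 of the 33, and the median range was 5.01-fold.

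**Figure D3:**
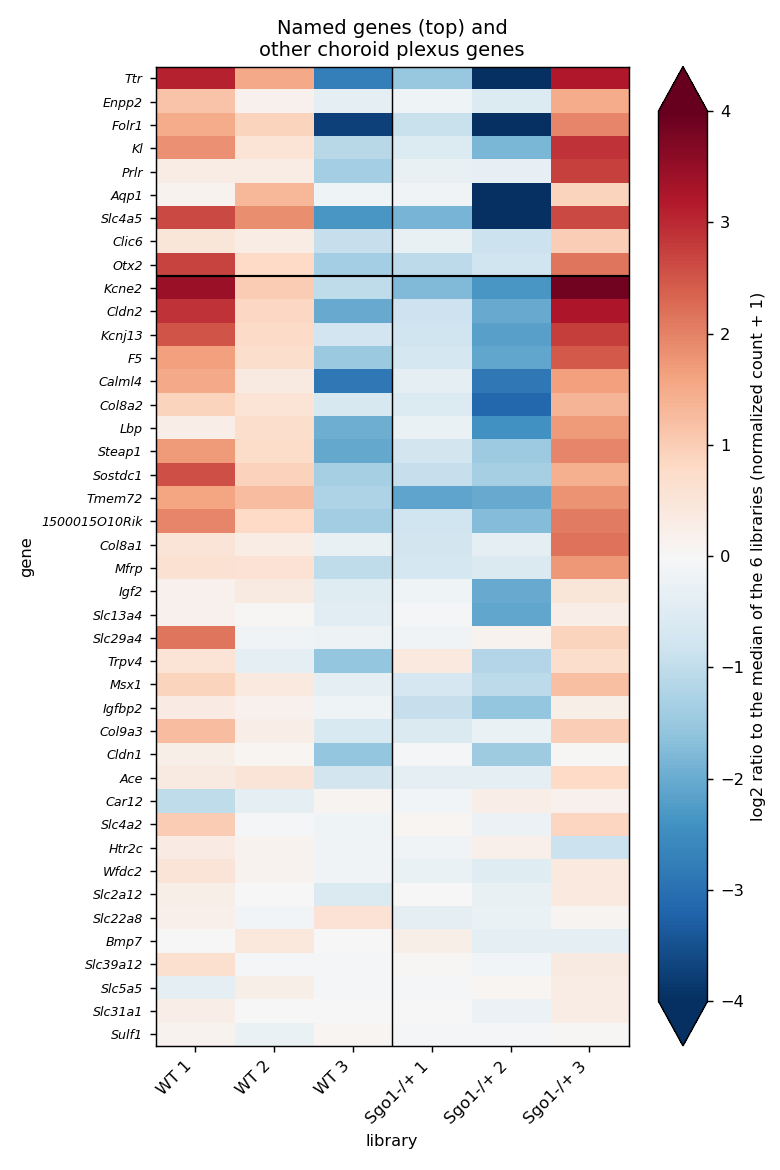
Log2 ratio of normalized count plus 1 to its median over the 6 libraries (colour, clipped at 4 either way), for the 9 genes (above the line) and the 33 other choroid plexus genes that passed the filter (below, ordered by range), in 3 WT and 3 Sgo1-/+ libraries. The columns of WT replicate 1 and Sgo1-/+ replicate 3 are mostly red and that of Sgo1-/+ replicate 2 mostly blue, and Car12 is lowest in WT replicate 1 and Htr2c in Sgo1-/+ replicate 3.

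How closely each gene followed Ttr was measured by Pearson's r of log2(CPM + 1) over the 6 libraries, where CPM are counts scaled to one library size with the TMM factors. The 6 points are shared by all genes and differ in depth and tissue content, so r is a description. Folr1 had r = 0.988 and Slc4a5 r = 0.983, ranks 3 and 8 among 16337 genes including Ttr itself. Clic6 followed with 0.965, Kl with 0.960, Enpp2 with 0.931 and Otx2 with 0.918, while Aqp1 at 0.781 and Prlr at 0.727 were less alike. Spearman's rho was 1 for Folr1, Slc4a5, Kl and Enpp2, 0.943 for Clic6, 0.886 for Prlr, 0.829 for Aqp1 and 0.771 for Otx2. For Folr1 the rho rests on an order of libraries under 3 counts. For Slc4a5 it rests on the order of WT replicate 1 and Sgo1-/+ replicate 3, both at 156 normalized counts.

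At least 0.9 was reached by 6 of the 8 genes other than Ttr, against 161 of the 16336 other tested genes (0.986%), and by 14 of the 33 further choroid plexus genes (42.4%). Without WT replicate 1 these were 6, 338 and 14, with r from 0.829 (Prlr) to 0.989 (Folr1) among the 8. Over the 4 libraries left without Sgo1-/+ replicates 2 and 3, the 2 farthest from the median of Ttr, r was 0.987 for Slc4a5, 0.984 for Folr1, 0.983 for Kl, 0.972 for Clic6, 0.955 for Otx2, 0.922 for Enpp2, 0.902 for Prlr and 0.527 for Aqp1. Aqp1 was thus the gene whose likeness rested on those 2 libraries. With so few libraries many genes reach a high r: 1080 genes were at 0.9 or more over these 4.

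The 10 genes most like Ttr included Folr1, Slc4a5 and 2 of the further choroid plexus list, 1500015O10Rik (r = 0.984) and F5, coagulation factor V (r = 0.978). The first was Abca4, a transporter of retinoids best known from photoreceptors, with r = 0.990 and levels of 136, 98.5 and 49.9 normalized counts in WT and 72.2, 42.5 and 148 in Sgo1-/+. Frem1, a basement membrane protein gene, and Zfp185 had r = 0.987 each, and the junction protein gene Tjp3 had r = 0.980 at no more than 24.0 normalized counts. Dvl2 (r = 0.984), of Wnt signalling, and Utp14a (r = 0.978), of ribosome assembly, varied over a narrow range, Dvl2 from 288 to 397 and Utp14a from 169 to 209, and both were highest in WT replicate 1. A high r therefore did not mean a wide range.

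**Figure D4:**
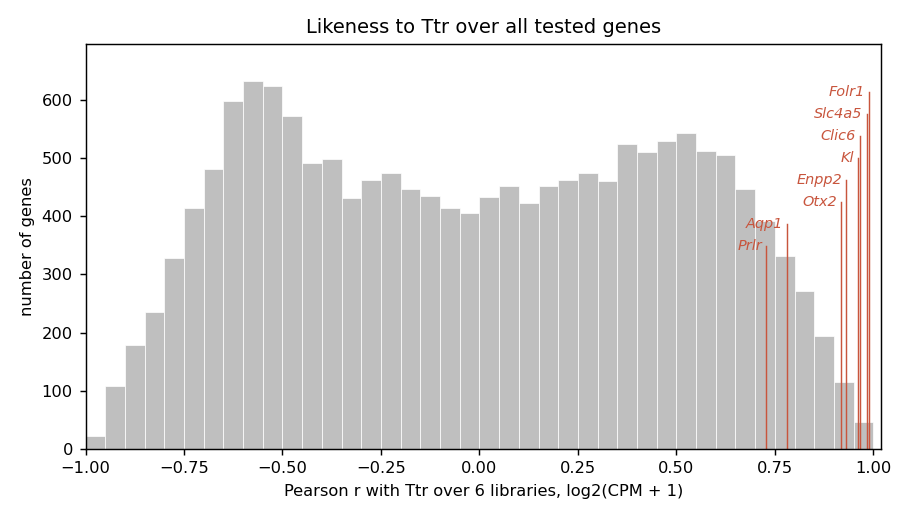
Number of tested genes (vertical axis) by Pearson's r with Ttr over the 6 libraries (horizontal axis, bins over 16336 genes), with the 8 other genes marked by red lines. The 6 genes from Otx2 (0.918) to Folr1 (0.988) lie in the right tail, and Aqp1 (0.781) and Prlr (0.727) lie to the left of it.

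The genes that carry, sense or use what transthyretin carries were read from a list of 14, of which 12 passed the filter and 0 differed at an unadjusted p under 0.05 in edgeR (2.04% of all genes), with a median log2 difference of 0.10. Alb and Serpina7, the other thyroxine carriers of blood, were at 0 to 8.11 and at 0 normalized counts. The median r with Ttr over the 12 tested genes was -0.20, and none reached 0.9. The most abundant were the thyroid hormone receptor gene Thra (4510 to 10485 normalized counts, lowest in WT replicate 1) and the hormone-induced Klf9 (1221 to 2625), then Crym, a binder of thyroid hormone (22.1 in WT replicate 1 and 619 to 1125 in the other 5). Rbp4, the retinol-binding protein that transthyretin carries, was at 58.9, 69.5 and 186 in WT and at 98.2, 88.6 and 151 in Sgo1-/+, in another order than Ttr. The libraries with 192-fold different Ttr, Sgo1-/+ replicates 2 and 3, held 674 and 728 normalized counts of Dio2, the enzyme that activates thyroxine. Dio3 of the same list was at 16.2 and 4.09 in the same libraries, and its r with Ttr was -0.752.

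Of 21 ligands, partners and downstream genes of Kl, Prlr, Folr1 and Enpp2, 15 passed the filter and 0 differed at an unadjusted p under 0.05 in edgeR, with a median log2 difference of -0.13. Fgf23, the ligand of Klotho, was at 2.03 to 8.19 normalized counts. Its receptor genes Fgfr1 (680 to 1640), Fgfr2 (552 to 1299) and Fgfr3 (1064 to 1699) were expressed in every library. Plpp3, a phosphatase of the lysophosphatidic acid that autotaxin makes, was the most abundant of the list at 2477 to 3363 normalized counts, with a log2 difference of 0.21 (SE 0.121).

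Prl, the ligand of Prlr, did not pass the filter but was not evenly low. It was at 2.01, 3.47 and 58.9 normalized counts in the WT libraries and at 0, 0 and 297 in the Sgo1-/+ libraries. The library with the highest Prlr thus also held the highest Prl, and WT replicate 3, with the second highest Prl, had the lowest Prlr. Gh, the other abundant hormone of the anterior pituitary, chosen after its values were seen, was at no more than 6.08 in any library and at 3.07 in Sgo1-/+ replicate 3. The Stat5 target genes Cish (94.0 in Sgo1-/+ replicate 3, and 51.5 to 106 in the other 5) and Socs2 (214, and 146 to 242) were not at an extreme in that library.

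Among 19 family members of the 9 genes, 16 passed the filter and 0 differed at an unadjusted p under 0.05 in edgeR, with a median log2 difference of -0.04 and a median r with Ttr of 0.074. The most abundant were Enpp5 (3662 to 4297 normalized counts), the bicarbonate transporter gene Slc4a4 (2609 to 5002) and its relative Slc4a10 (2007 to 3898). Their ranges were narrow beside that of Slc4a5.

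Markers of other cell types that border the choroid plexus were followed in the same way. The 10 ependymal markers, of the ciliated cells that line the ventricles, summed to 480, 356 and 187 normalized counts in the WT libraries and to 399, 202 and 596 in the Sgo1-/+ libraries. Sgo1-/+ replicate 3 was the highest and Sgo1-/+ replicate 2 and WT replicate 3 the lowest, as for Ttr, over a much narrower span. Foxj1, the regulator of motile cilia, was at 230, 111 and 70.2 in WT and at 122, 77.5 and 216 in Sgo1-/+. Its Spearman's rho with Ttr was 0.829. For Foxj1 and for the sum, Sgo1-/+ replicate 1 lay above WT replicate 2, unlike for Ttr. The next most abundant were Rarres2 (24.4 to 75.8) and Rsph1 (30.7 to 61.4), and 0 of 9 tested differed at an unadjusted p under 0.05 in edgeR. The part of this lining in the levels of the 9 genes was not tested.

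The 10 markers of meningeal and stromal fibroblasts summed to 1512 to 1655 normalized counts in WT and to 1497, 680 and 1142 in Sgo1-/+. Of the 10, 2 were lower in Sgo1-/+ at an unadjusted p under 0.05 in edgeR (2.04% of all genes, higher or lower). In the list 1 gene was higher and 9 lower, with a median log2 difference of -0.65. The groups did not overlap for 2 of the 10, Slc22a6 and Aldh1a2, against 6.82% of all tested genes. The log2 difference was -1.11 for Slc22a6 (SE 0.304, edgeR unadjusted p = 0.00831) and -0.65 for Slc6a20a (SE 0.266, edgeR unadjusted p = 0.0458), both with an adjusted p of 1.0. The most abundant were Igfbp6 (135 to 468), Col1a2 (52.7 to 357) and Dcn (89.2 to 355). The lowest sum lay in Sgo1-/+ replicate 2, the library with the least Ttr, and its part in those levels was not tested.

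The 6 endothelial markers, led by Flt1, Ly6c1 and Slco1a4, summed to 2629 to 4039 normalized counts and the 5 red cell genes, led by Hba-a1, Hbb-bs and Hbb-bt, to 1393 to 17052. Both sums were highest in Sgo1-/+ replicate 1, and 0 of either list differed at an unadjusted p under 0.05 in edgeR. Neither followed Ttr: red cell genes were lowest in Sgo1-/+ replicate 3, where Ttr was highest, and their median r was -0.324.

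The pigment epithelium of the eye and the pineal gland also make Ttr or Otx2. Their 8 markers summed to 173 to 305 normalized counts, mostly from Rlbp1 (132 to 250), and only Rlbp1 and Rpe65 passed the filter. Rpe65 was higher in Sgo1-/+ (9.89, 11.4 and 18.2 in WT against 25.2, 35.2 and 30.6, log2 difference 1.19, SE 0.348, unadjusted p = 0.0115 and adjusted p = 1.0 in edgeR). Of the defining markers, Asmt was at 0 in 5 libraries and at 1.01 in WT replicate 1, and Aanat was at no more than 3.07 in any. Tyrp1 was at 0 in Sgo1-/+ replicates 2 and 3, the libraries with the least and the most Ttr, and at 9.52 to 15.1 in the other 4.

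Of the 11 brain stem and cerebellum markers, led by Calb1, Cbln3 and Slc6a5, 8 passed the filter. Of these, 2 were lower in Sgo1-/+ at an unadjusted p under 0.05 in edgeR (2.04% of all genes, higher or lower). The log2 difference was -6.78 for Slc6a5 (edgeR unadjusted p = 0.0221) and -3.90 for Glra1 (edgeR unadjusted p = 0.0403). Without WT replicate 1 these differences were -1.50 and -0.07. The 10 markers of cortex and hippocampus neurons, led by Camk2a, Wfs1 and Tbr1, and the 7 oligodendrocyte markers, led by Mbp, Mobp and Cnp, held 0 such genes. WT replicate 1 and Sgo1-/+ replicate 3, both high in Ttr and in oligodendrocyte markers, differed in the region markers: Sgo1-/+ replicate 3 held 43799 normalized counts of the cortex and hippocampus list and WT replicate 1 held 6273. Sgo1-/+ replicate 3 also held the second highest level of some cerebellar markers, such as Cbln3 (201 normalized counts, against 4639 in WT replicate 1 and 12.2 to 171 in the other 4). The part of the region markers in the levels of the 9 genes was not tested.

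**Figure D5:**
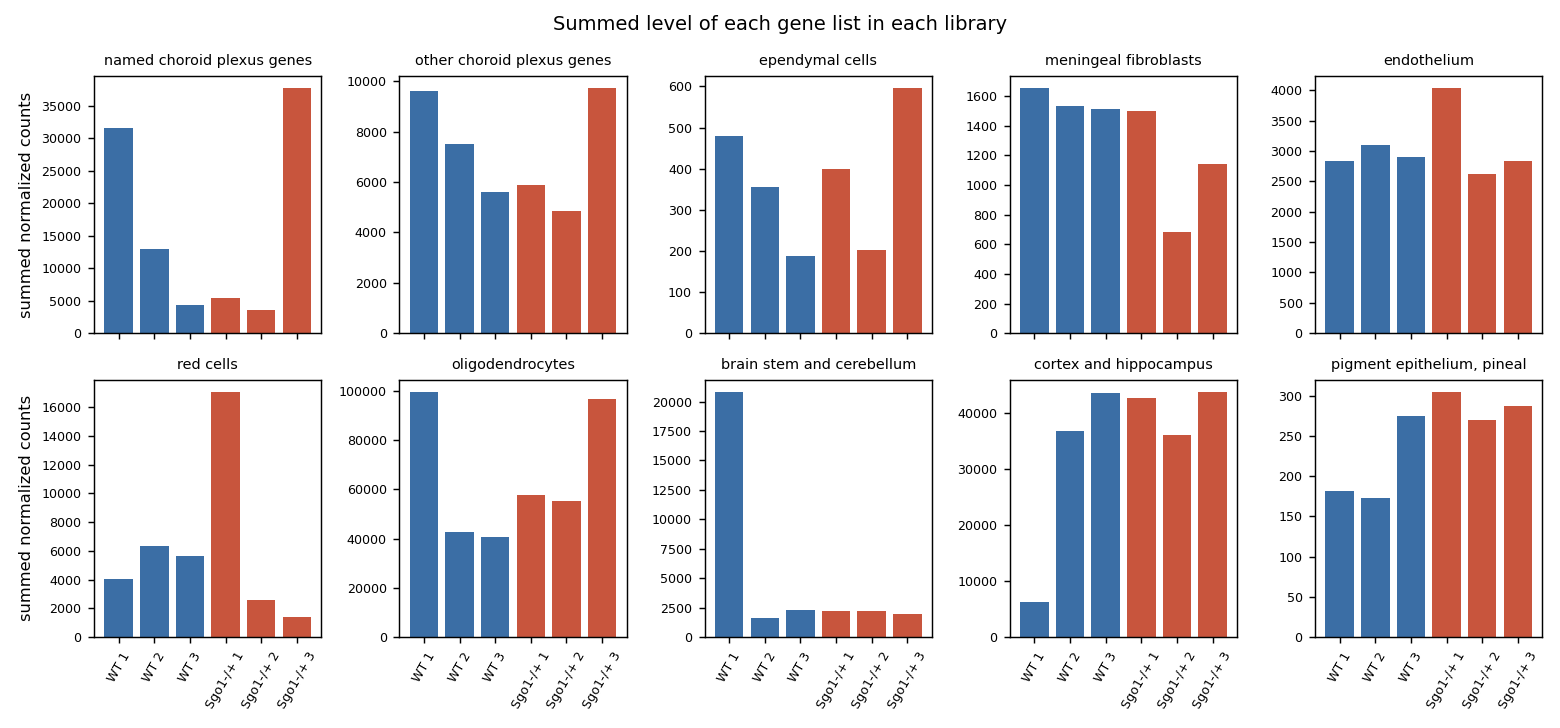
Summed normalized counts of each gene list (bars from 0, vertical axes scaled per list) in the 3 WT libraries (blue) and the 3 Sgo1-/+ libraries (red). The 9 named genes sum to 31689, 13012 and 4309 in WT and to 5430, 3568 and 37770 in Sgo1-/+, an order that the 36 other choroid plexus genes share and that the endothelial, red cell and neuronal lists do not.

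The positions of the genes in the table (build mm10) bear on what was counted. Enpp2 (15:54838898-54920146, minus strand) overlaps the antisense gene Gm26684 over 5.97% of its exon length, and Prlr (15:10177238-10349180, plus strand) overlaps Gm21973 on the same strand over 1.32%. Otx2 (14:48657679-48667644, minus strand) overlaps Otx2os1 over 3.65% and Gm49154 over 3.98%. Whether the counting used the strand is not given in the sources used here, so reads of the overlapping stretches cannot be assigned. The exons of the other 6 genes overlap no annotated gene.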

How the data were processed

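Libraries of brain RNA (TruSeq V2 kit, Illumina MiSeq) were aligned by the authors to mm10 with Strand NGS, and the authors deposited an estimated count per Ensembl gene for each library. Of these values 47.4 to 48.6% were not whole numbers, and they were rounded for the count tests. The authors also deposited values after DESeq normalization on a log2 scale with each gene's median subtracted, used here only to compare library orders. Columns with the authors' own fold changes were not used, and 0 other columns of samples were left out. The table names its columns by number, and the first 3 were taken as WT and the last 3 as Sgo1-/+. The labelled sexes matched this, but the order of the 2 females within a genotype could not be checked.

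Sgo1-/+ was compared with WT by the quasi-likelihood test of edgeR 4.0.16 (R 4.3.3) with TMM scaling, the default filter (16337 genes) and Benjamini-Hochberg adjustment over all tested genes at 0.05. The SE is the size of the log2 difference over the square root of F. DESeq2 1.42.0, limma 3.58.1 on log2(DESeq-normalized count + 1), other scalings and filters, a sex term, a replicate block and each library left out were alternatives. The tests were tried on simulated counts. FPKM used exon lengths of GENCODE M21 (36308 of 38087 gene IDs). Counting intervals are exact binomial (95%), assume independent molecules and cover counting error only.

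The 9 genes and all lists were chosen with earlier results of these data known. Named were the 9, the 8 most abundant further choroid plexus genes and those at 0 or at an unadjusted p under 0.05, the 10 genes most like Ttr, and of other lists the 3 most abundant and those at an unadjusted p under 0.05. Outside this rule, Rbp4, Dio2, Dio3, Alb, Serpina7, Fgf23, Fgfr2, Prl, Cish, Socs2, Aldh1a2, Asmt, Aanat, Tyrp1 and Gh were named after values were seen. A listed oligodendrocyte gene is not reported here and was left out of its list.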

Additional observations from a re-analysis of the deposited data

How the results depend on the processing

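Of 122 values of single members under the alternatives, 4 moved by more than the spread between replicates, all without Sgo1-/+ replicate 3 (Ttr, Kl, Prlr and Slc4a5). That spread was wide, so the count does not show that the values were stable. Ttr went from -0.25 to -3.56 with the replicate block and to 1.09 without WT replicate 1, and neither counted as moved. Genes called numbered 3 with DESeq2's Wald test and 0 to 1 with 1 library left out (1 without Sgo1-/+ replicate 2). Genes at an unadjusted p under 0.05 numbered 563 with no filter and 240 to 1040 with 1 library left out (626 without WT replicate 1, 1040 without WT replicate 3). Further choroid plexus genes at that threshold numbered 0 to 5 with 1 library left out, and their median log2 difference ran from -0.87 (without Sgo1-/+ replicate 3) to 0.18. The replicate numbers did not pair the samples (correlation of deviations -0.146, 0.014 and -0.207), and with the replicate block 1 further choroid plexus gene passed (Car12, 0.54, edgeR unadjusted p = 0.0456), while 1 of the 9 genes was higher and 8 lower in Sgo1-/+ (median -0.92, Ttr -3.56, Kl -0.73). limma gave the same split (median -0.62), and sex as a covariate gave 5 and 4. A filter of 10 counts in every library left 5 of the 9. Genes with r of at least 0.9 with Ttr numbered 161 to 194 with another pseudocount or scaling, 1080 over 4 libraries and 274 to 542 with 1 library left out. Depth limits Folr1, Slc4a5, Aqp1 and Otx2, whose lowest libraries held 0 to 7 counts.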
